A study of Rattus norvegicus with 2 samples.

Results

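The genes described here are those of B cells, of plasma cells and of the antibody transport of mucosal surfaces, as measured in rat lung. They were taken by gene symbol, as every probe set without a control function whose platform annotation gave exactly 1 symbol and that symbol was *Jchain*, *Pigr*, *Cd79a*, *Cd79b*, *Ms4a1*, *Cd38*, *Xbp1* or *Tnfrsf17*. Of the 8 genes, 6 had such a probe set, which gave 8 probe sets of the 31042 on the array: 2 each for *Jchain* and *Tnfrsf17* and 1 each for *Pigr*, *Cd79b*, *Ms4a1* and *Xbp1*. *Cd79a* and *Cd38* were not analysed here. The 8 genes were chosen by name with the levels and differences of these same arrays already known, so both are given as descriptions, with no test.

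The study asked how reproducible global gene expression is in rat lung. Total RNA was hybridized to 2 Affymetrix rat genome expression arrays, 1 handled by experimenter 2 and 1 by experimenter 1. The experimenter numbers used here are the final digits of the sample titles. The labels name lung as the tissue of both and name no treatment; the sources used here do not give strain, age, number of animals or whether 1 lung served for both. Each value is a log2 RMA value, a background-corrected and normalized brightness of the group of probes that makes up 1 probe set. All differences are experimenter 2 minus experimenter 1 on that log2 scale, and with 1 array per experimenter none has a replicate error or a test. In whole lung tissue, fewer cells of a type and less RNA per cell cannot be told apart. Nor can either be told apart here from the handling by the experimenter, the array or the lung used.

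Differences over all 31042 probe sets had a median of -0.052 with an SD of 0.28, and 41.0% of them were positive, that is higher for experimenter 2. The median level was 6.28 for experimenter 2 and 6.32 for experimenter 1. The lung label was checked with markers of alveolar type 2 cells, the surfactant-making cells found in lung: all 7 listed markers were measured, at 11.02 to 14.36 for experimenter 2 and 11.30 to 14.39 for experimenter 1, far above the median level of either array.

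B cells carry a membrane antibody whose signal is passed on by the CD79A and CD79B chains, and the tetraspan protein MS4A1, known as CD20, marks them from the precursor stage until they become plasma cells. Plasma cells make antibody in bulk, which depends on the transcription factor XBP1 for an enlarged secretory pathway, and they receive survival signals through TNFRSF17, known as BCMA. Antibodies of the IgA and IgM classes are linked into polymers with the J chain, and the polymeric immunoglobulin receptor PIGR, made by mucosal epithelium, carries these polymers across the cell into the airway lumen. Of the genes described, *Pigr* and *Xbp1* are also used by epithelial cells, so their signal in whole lung is not that of B cells alone.

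Upstream sequences are shown for the members of antibody polymer formation, transport and secretion, because each of the windows holds a match to a short motif. They are from RefSeq on rat assembly GRCr8, all 3 on the plus strand, 5′ to 3′, with the motif in capitals. For *Jchain* (chr14:19822726-19822975) and *Xbp1* (chr14:84604373-84604622) the 250 bases before the start site are given, and for *Pigr* (chr13:44851097-44851126) the 30 bases around the motif.
Jchain: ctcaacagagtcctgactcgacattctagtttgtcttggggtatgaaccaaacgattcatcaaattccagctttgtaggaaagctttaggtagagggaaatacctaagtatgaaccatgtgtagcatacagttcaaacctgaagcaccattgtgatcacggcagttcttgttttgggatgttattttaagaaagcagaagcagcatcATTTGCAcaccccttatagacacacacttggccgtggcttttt
Xbp1: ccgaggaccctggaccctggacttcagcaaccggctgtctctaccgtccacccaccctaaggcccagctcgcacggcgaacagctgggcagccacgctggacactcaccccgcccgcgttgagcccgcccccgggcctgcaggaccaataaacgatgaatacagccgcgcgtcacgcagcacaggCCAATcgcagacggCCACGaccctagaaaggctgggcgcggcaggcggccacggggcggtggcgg
Pigr: atctgtgggagtCACGTGctctggctggct

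The *Jchain* capitals are ATTTGCA, the first 7 letters of the octamer ATTTGCAT that OCT factors bind in immunoglobulin promoters, at bases -43 to -37 from the start site. This stretch occurred on either strand in 3.54% of the 33469 upstream windows of 250 bases in the table, and the full octamer, which contains it, in 1.56%. The full octamer was not in the *Jchain* window. The *Xbp1* capitals are the fixed letters of the endoplasmic reticulum stress response element, CCAAT and CCACG with 9 bases between them, at bases -65 to -47, a match that 0.0657% of the windows held. The *Pigr* capitals are the E-box CACGTG at bases -73 to -68, which 5.59% of the windows held and which reads the same on both strands. The motifs were picked after the sequences had been read, and a match is a description of the letters only. The table held windows for 4 of the 6 measured genes, these 3 and *Tnfrsf17*, in whose window none of the 4 patterns occurred. *Cd79b* and *Ms4a1* were not matched.

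The antibody linker and the antibody carrier of the mucosa differed in opposite directions between the arrays. *Jchain*, the joining chain of polymeric IgA and IgM, measured 11.34 for experimenter 2 and 11.16 for experimenter 1 by the brighter of its probe sets (1383163_at), which lay at percentile 98.1 of the array of experimenter 2 and 97.7 of that of experimenter 1. The difference was 0.18, or 1.13-fold. Its second probe set (1384208_at) measured 8.05 for experimenter 2 and 7.99 for experimenter 1, a difference of 0.056. Both probe sets of *Jchain* were thus higher for experimenter 2, by less than the SD over all probe sets. They stood 3.29 apart in level for experimenter 2 and 3.17 apart for experimenter 1, although they report the same gene, so a difference in level between probe sets need not be one in transcript amount.

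*Pigr*, the receptor that carries polymeric antibody through the epithelium, measured 12.32 for experimenter 2 and 12.60 for experimenter 1 by its single probe set (1371099_at). It lay at percentile 99.3 of the array of experimenter 2 and 99.5 of that of experimenter 1, so its signal was among the brightest of each array. The difference of -0.28 is 1.21-fold lower for experimenter 2, and 27.9% of all probe sets differed by as much in either direction. Among the 210 probe sets within 0.5 of its mean level, the SD of the differences was 0.21, so that *Pigr* lay outside 1 SD for its own brightness.

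The pair of B cell surface genes also split in direction. *Cd79b*, the signalling chain of the B cell receptor, measured 7.23 for experimenter 2 and 7.39 for experimenter 1 (1387749_at), at percentile 62.3 of the array of experimenter 2 and 64.0 of that of experimenter 1. *Ms4a1*, which encodes CD20, measured 7.63 for experimenter 2 and 7.50 for experimenter 1 (1391446_at), at percentile 67.7 for experimenter 2 and 65.5 for experimenter 1. The differences were -0.16 for *Cd79b* and 0.13 for *Ms4a1*. Of all probe sets, 52.4% differed by at least as much as *Cd79b* in either direction, and 59.0% by at least as much as *Ms4a1*. Both genes read above the median level of each array, in its middle range, on both arrays.

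Among the plasma cell genes, *Xbp1* gave a bright and closely matched signal and *Tnfrsf17* a dim one. *Xbp1*, the transcription factor of the secretory programme, measured 11.63 for experimenter 2 and 11.53 for experimenter 1 (1371249_at), at percentile 98.6 for experimenter 2 and 98.4 for experimenter 1, with a difference of 0.10. *Tnfrsf17*, the BCMA receptor, measured 4.79 for experimenter 2 and 5.44 for experimenter 1 by the probe set with the higher mean (1385710_at). Its other probe set (1384441_at) measured 4.94 for experimenter 2 and 5.15 for experimenter 1. Both probe sets of *Tnfrsf17* were lower for experimenter 2, by 1.58-fold (-0.66) and 1.15-fold (-0.20). All 4 values lay below the median level, at percentiles 30.7 and 32.8 of the array of experimenter 2 and 38.7 and 34.8 of that of experimenter 1. RMA gives no detection call, so whether *Tnfrsf17* was above background on either array was not tested.

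**Figure D1:**
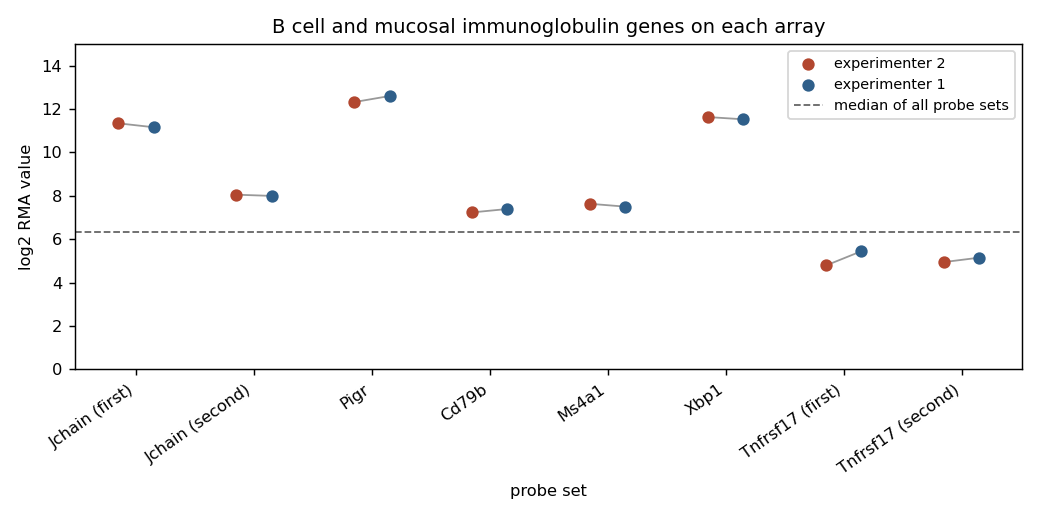
Log2 RMA value of each member probe set on the array of experimenter 2 (left point of each pair) and of experimenter 1 (right point), joined by a grey line; the dashed line is the median of all probe sets, 6.31. Of the pairs, 7 lie within 0.28 of each other, the first *Tnfrsf17* pair lies farther apart (4.79 for experimenter 2 and 5.44 for experimenter 1), and only the *Tnfrsf17* probe sets lie under the dashed line.

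Set against all probe sets, the differences of 7 of the 8 members were of ordinary size, and that of the first *Tnfrsf17* probe set was larger. Of the 8, 4 were higher and 4 lower for experimenter 2, with a median difference of -0.051, against -0.052 over all probe sets. By gene, *Jchain*, *Ms4a1* and *Xbp1* were higher and *Pigr*, *Cd79b* and *Tnfrsf17* lower, and the probe sets of 1 gene pointed the same way for *Jchain* and for *Tnfrsf17*. A difference of at least 1.5-fold (0.58 on the log2 scale) was used as a fixed rule of size. It was passed by 1 of the 8 probe sets, the first of *Tnfrsf17*, downward, where 4.35% of all probe sets passed it in either direction and 2.3% downward. With the bound lowered to 0.32 on the log2 scale the same 1 of 8 passed, where 21.8% of all did, and at 2-fold 0 of 8 passed, where 0.37% of all did. That probe set stood at percentile 1.38 of all differences, counted from the most negative, and 2.78% of all probe sets differed by as much in either direction. Among the 4119 probe sets within 0.5 of its mean level the SD was 0.32, the widest spread around any member, against 0.22 among the 652 around the brighter *Jchain* probe set. The other 7 members lay within 1.5-fold, between -0.28 and 0.18.

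**Figure D2:**
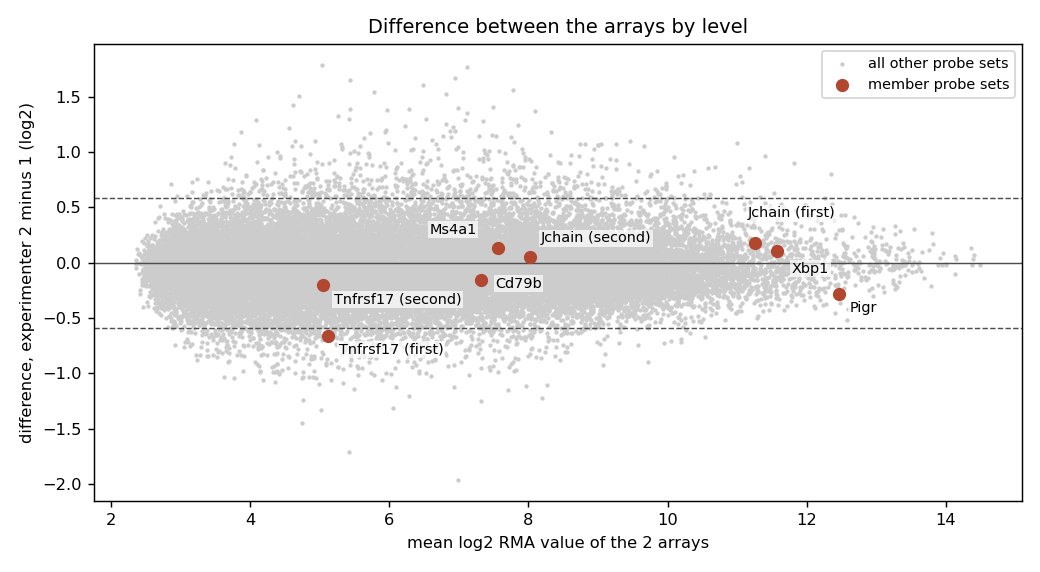
Difference between the arrays (experimenter 2 minus experimenter 1, log2) against the mean level of the 2 arrays for all 31042 probe sets, in grey, and for the 8 members, in red; dashed lines mark 1.5-fold. The members lie inside the grey cloud, and the first *Tnfrsf17* probe set, at -0.66, is the one beyond a dashed line.

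The rest of the pathway was read from lists of genes, each gene by its brightest probe set, beside a median of -0.049 over all 14217 genes, of which 41.1% were higher for experimenter 2 and 3.24% differed by at least 1.5-fold. Centring on the median difference adds 0.052 to every value, and removal of a loess trend moved the median of all probe sets up by 0.052. A list median between -0.052 and 0 may therefore change sign under these 2 scalings. Of immunoglobulin chains, the list held 2 measured genes, both lower for experimenter 2 and neither past 1.5-fold. Neither gene names an antibody class, so their share in the polymeric IgA and IgM that PIGR carries was not tested. *Ighvl1*, annotated as a heavy chain variable gene, measured 8.89 for experimenter 2 and 9.27 for experimenter 1. *Iglc1*, a lambda light chain constant gene, measured 7.06 for experimenter 2 and 7.21 for experimenter 1. A further heavy-chain-like gene, *Ighl2*, chosen after its values were seen, measured 8.38 for experimenter 2 and 8.92 for experimenter 1. The differences were -0.39 for *Ighvl1* and -0.16 for *Iglc1*, and that of *Ighl2*, which is not counted with them, was -0.54. Probes of immunoglobulin genes can bind several near-identical family members, so these values are uncertain as to gene.

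Surface proteins that act beside the B cell receptor had a median difference of -0.025 over 12 of 16 genes measured, with 5 higher, 7 lower and 0 past 1.5-fold. *Cd81*, a tetraspanin that many cell types make, measured 12.41 for experimenter 2 and 12.43 for experimenter 1. *Ly86*, the partner of the RP105 receptor, measured 7.38 for experimenter 2 and 7.89 for experimenter 1, and *Fcmr*, a receptor for IgM, 8.55 for experimenter 2 and 8.95 for experimenter 1. Both lay outside 1 SD of all differences and below 1.5-fold.

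Signalling genes downstream of the receptor had a median of -0.15 over 17 of 19 genes, with 5 higher, 12 lower and 0 past 1.5-fold. *Rasgrp3*, an activator of RAS, measured 9.60 for experimenter 2 and 9.91 for experimenter 1. *Vav1*, a signalling protein of blood cells, measured 6.83 for experimenter 2 and 7.32 for experimenter 1, while *Pik3ap1*, the adaptor BCAP that links the receptor to PI3 kinase, was higher at 7.78 for experimenter 2 and 7.40 for experimenter 1. Much of this list is shared with T cells and myeloid cells, which also use *Vav1*, *Lyn*, *Syk* and *Ptpn6*.

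Transcription factors of B cells and plasma cells had a median of 0.061 over 9 of 17 genes, with 5 higher and 4 lower. *Bcl6*, the repressor that sustains germinal centre B cells, measured 9.53 for experimenter 2 and 9.40 for experimenter 1. *Ebf1*, an early B cell factor that mesenchymal cells also make, measured 8.05 for experimenter 2 and 7.86 for experimenter 1, and *Mef2c* 8.02 for experimenter 2 and 8.28 for experimenter 1. None of the 9 passed 1.5-fold.

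Plasma cell markers had a median of -0.077 over 8 of 13 genes, with 1 higher, 7 lower and 0 past 1.5-fold. *Sdc1*, the syndecan CD138 of plasma cells and epithelium, measured 10.15 for experimenter 2 and 10.30 for experimenter 1. *Ell2*, the elongation factor that favours the secreted form of antibody mRNA, measured 7.10 for experimenter 2 and 7.43 for experimenter 1.

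The unfolded protein response and secretory list around *Xbp1*, whose genes act in most secretory cells, had a median of -0.018 over 20 of 21 genes, with 9 higher and 11 lower. *Hsp90b1*, the chaperone GRP94, measured 12.06 for experimenter 2 and 12.15 for experimenter 1. *Syvn1*, the ubiquitin ligase HRD1 of protein disposal from the endoplasmic reticulum, was the 1 gene of this list past 1.5-fold. It measured 8.90 for experimenter 2 and 8.29 for experimenter 1, a 1.53-fold difference. *Pdia6*, a disulphide isomerase, measured 10.95 for experimenter 2 and 10.54 for experimenter 1.

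Genes of B cell survival and homing had a median of 0.043 over 19 of 22 genes, with 10 higher and 9 lower. *Cxcl12*, the chemokine that retains plasma cells in their niches, measured 10.10 for experimenter 2 and 9.55 for experimenter 1, or 1.46-fold. Its receptor *Cxcr4* measured 10.64 for experimenter 2 and 10.59 for experimenter 1. *Ccr6*, a chemokine receptor of mucosal lymphocytes, measured 7.15 for experimenter 2 and 7.46 for experimenter 1. None of the 19 passed 1.5-fold.

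Receptors of immunoglobulin other than *Pigr* had a median of -0.039 over 6 of 9 genes, with 3 higher, 3 lower and 0 past 1.5-fold. *Fcer1g*, the signalling chain shared by several Fc receptors, measured 11.89 for experimenter 2 and 12.20 for experimenter 1. *Fcgr1a*, the high-affinity receptor of IgG, measured 7.97 for experimenter 2 and 8.41 for experimenter 1.

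Cytokine receptors and factors known to raise *Pigr* had a median of -0.055 over 9 of 11 genes, with 3 higher, 6 lower and 0 past 1.5-fold. *Ifngr1*, a chain of the interferon gamma receptor, measured 10.82 for experimenter 2 and 10.94 for experimenter 1. *Stat6*, the transcription factor of interleukin 4, measured 6.38 for experimenter 2 and 6.71 for experimenter 1, and *Rela*, an NF-kB subunit, 9.69 for experimenter 2 and 9.50 for experimenter 1.

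The 7 other *Ms4a* genes measured had a median of 0.095, with 4 higher and 3 lower, and 1 of them, *Ms4a6bl1*, read above the median level, at 9.69 for experimenter 2 and 10.00 for experimenter 1. Genes of NAD and cyclic ADP-ribose, the substrate and product of the CD38 enzyme, had a median of -0.026 over 10 of 12 genes, with 4 higher and 5 lower. *Nadk*, the NAD kinase, measured 10.32 for experimenter 2 and 10.09 for experimenter 1, and *Nmnat1*, an enzyme of NAD synthesis, 6.38 for experimenter 2 and 6.67 for experimenter 1. None of these 17 genes passed 1.5-fold.

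**Figure D3:**
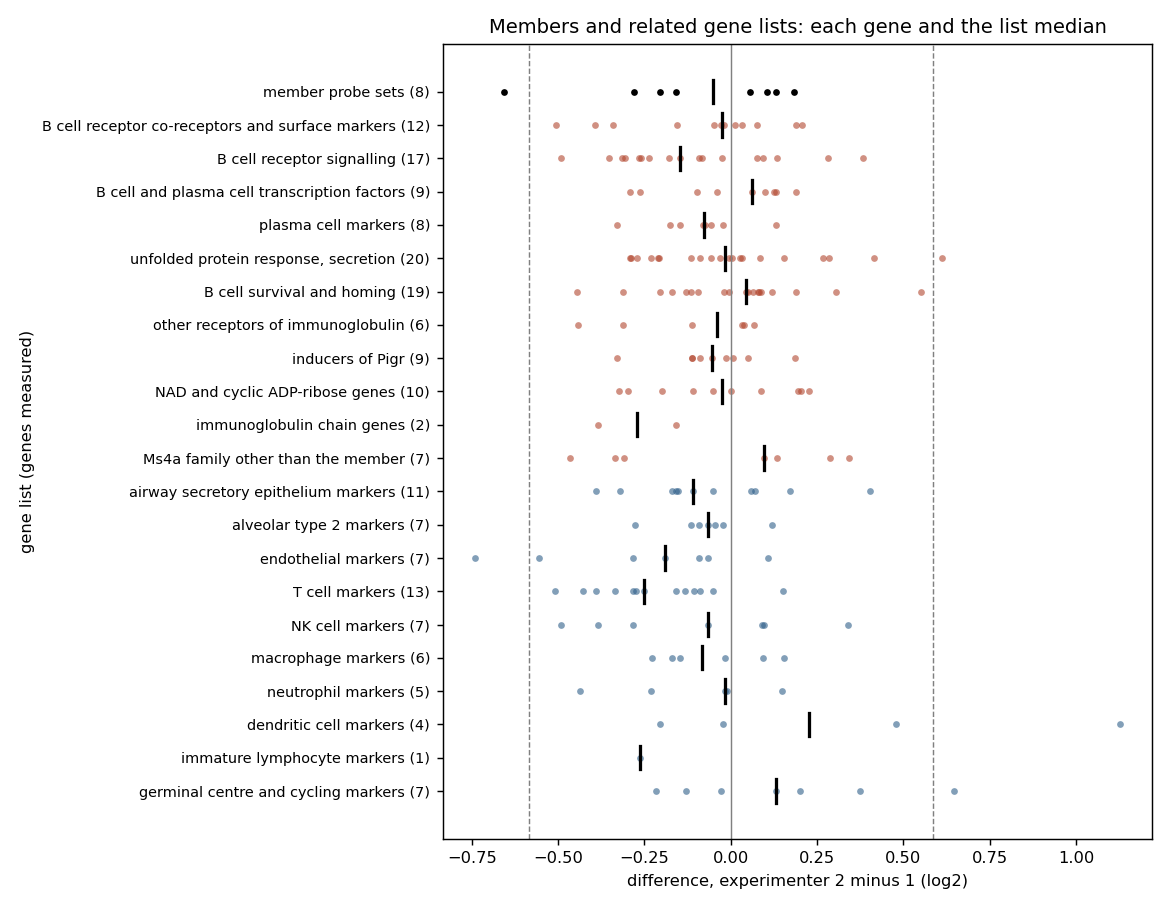
Difference between the arrays (experimenter 2 minus experimenter 1, log2) for the 8 member probe sets (top, black), for each gene of the pathway lists (red) and of the cell type marker lists (blue); black bars are medians, dashed lines mark 1.5-fold and the number measured is in brackets. The T cell list, with a median of -0.25, lies mostly left of 0, and *Ly75*, at 1.13, is the point farthest right.

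Markers of other cells that could carry or accompany these genes were read in the same way. T cell markers had a median of -0.25 over 13 of 14 genes, with 12 lower for experimenter 2, at 3.15 to 8.87 for experimenter 2 and 3.31 to 9.21 for experimenter 1. *Lck*, the kinase of the T cell receptor, measured 8.87 for experimenter 2 and 9.21 for experimenter 1, *Zap70*, its partner kinase, 7.70 for experimenter 2 and 8.21 for experimenter 1, and *Cd5* 6.41 for experimenter 2 and 6.84 for experimenter 1. None of the 13 passed 1.5-fold. How these values relate to the lower *Cd79b* and immunoglobulin values was not tested. *Ms4a1* (0.13) and the probe sets of *Jchain* (0.18 and 0.056) were higher for experimenter 2.

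Airway secretory epithelium, a site of *Pigr*, had a median of -0.11 over 11 of 13 genes, with 4 higher, 7 lower and 0 past 1.5-fold, at 5.03 to 14.44 for experimenter 2 and 5.17 to 14.37 for experimenter 1. *Scgb1a1*, the secretoglobin of club cells, measured 14.44 for experimenter 2 and 14.37 for experimenter 1, *Krt19*, a keratin, 11.52 for experimenter 2 and 11.91 for experimenter 1, and *Cdh1*, E-cadherin, 10.94 for experimenter 2 and 10.54 for experimenter 1. *Krt8*, *Krt19*, *Epcam* and *Cdh1* are shared with other epithelial cells, so the list is not one of airway secretory cells alone. The members of this list differed in both directions, and their part in the lower *Pigr* value was not tested.

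The other marker lists gave the setting of these values. Alveolar type 2 markers had a median of -0.066, with 1 of 7 higher: *Sftpc* measured 14.36 for experimenter 2 and 14.39 for experimenter 1, and *Abca3*, the lipid transporter of lamellar bodies, and *Sftpa1*, a surfactant protein, differed by -0.28 and 0.12. Endothelial markers had a median of -0.19 over 7 of 8 genes, with 1 higher, the receptor *Kdr* (0.11). *Tie1*, a receptor kinase of endothelium, differed by -0.55, and *Calcrl*, a peptide hormone receptor there, was past 1.5-fold at 7.07 for experimenter 2 and 7.82 for experimenter 1; a second probe set of *Calcrl* differed by -0.38.

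NK cell markers had a median of -0.068, with 3 of 7 higher. *Prf1*, *Gzmb* and *Klrk1*, genes of killing and of target recognition, differed by -0.068, -0.49 and -0.38. The 3 higher markers were *Klrb1a* (0.34), *Klrd1* (0.0955) and *Ncr1* (0.092), so the list was split in direction. Macrophage markers had a median of -0.082 over 6 of 8 genes, with 2 higher, *Adgre1* (0.15) and *Cd163* (0.092). Among the lower ones, *Lyz2*, *Cd68* and *Csf1r* differed by -0.018, -0.23 and -0.17. Neutrophil markers had a median of -0.016 over 5 of 7 genes, with 1 higher, *S100a8* (0.15), while its partner *S100a9* differed by -0.44. None of the genes measured in these lists passed 1.5-fold.

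Dendritic cell markers, with 4 of 7 genes measured, were split, 2 higher and 2 lower, so their median of 0.23 lies between values far apart. *Ly75*, an endocytic receptor of dendritic cells that B cells also carry, was past 1.5-fold at 6.93 for experimenter 2 and 5.80 for experimenter 1, and *Clec9a*, a receptor for dead cells, differed by 0.48, against -0.021 for *Itgae* and -0.20 for *Flt3*. Germinal centre and cycling genes had a median of 0.13 over 7 of 8 genes, with 4 higher and 3 lower, and the median was -0.080 among the genes at or above the median level. In that list *Ccnb1*, cyclin B1, was past 1.5-fold at 5.07 for experimenter 2 and 4.42 for experimenter 1, its second probe set differed by 0.21, and *Fas*, a death receptor, differed by -0.22. Of the immature lymphocyte list only *Cd93*, which endothelium also makes, was measured, at 11.17 for experimenter 2 and 11.43 for experimenter 1.

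The genes nearest to the 3 members with the highest means were found by Euclidean distance over the 2 arrays, on the log2 scale. They were *Rac1* (0.065) and *Rpsa* (0.067) for *Pigr*, *H2az1* (0.024) and *Atp5pb* (0.025) for *Xbp1*, and *Clstn1* (0.012) and *Jund* (0.023) for *Jchain*. With 2 arrays this likeness is one of brightness, and 3 genes lay within 0.1 of *Pigr* and 17 each within 0.1 of *Xbp1* and *Jchain*.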

How the data were processed

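Total RNA of rat lung was measured on 2 short-oligonucleotide arrays, 1 per experimenter. The deposited log2 values come from the authors' RMA step, per the submitters' processing notes. Neither the version of RMA nor which arrays entered it is given in the sources used here, and the range of the values set the log base at 2. RMA forces the probe values of arrays processed together to a common distribution, which hides a difference in total RNA. The probe set values used here still differed in median, 6.28 for experimenter 2 and 6.32 for experimenter 1. The number of arrays limits the precision. Of 31099 probe sets, 57 controls were left out. The platform annotation named 1 gene for 20826 of the remaining 31042, several for 436 and none for 9780. Lists used the probe set of highest mean for each gene. Named genes were, besides the members, the gene with the highest mean of each list, the 2 with the largest differences at or above the median level, every list gene past 1.5-fold and the 2 genes nearest to each of the 3 members with the highest means. *Ighl2*, *Flt3*, *Klrb1a*, *Klrd1*, *Ncr1*, *Adgre1*, *Cd163* and genes given only as examples of shared use were named outside this rule. The members, the 21 lists and the 1.5-fold rule were chosen with earlier results of these data known. Values were recomputed after centring on the median difference, after taking out a loess trend (fraction 0.3) and after quantile normalization, and with other fold thresholds, a filter on level and other summaries of probe sets and lists. Python 3.11.15 with numpy 2.4.6, pandas 2.3.3 and statsmodels 0.14.6 was used, plots were drawn with matplotlib 3.10.9, and the scaling steps were tested on simulated data.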

Additional observations from a re-analysis of the deposited data

How the results depend on the processing

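No paired analysis was possible because there is only 1 array a group, which also means that leaving out an array leaves no comparison. A value was taken to have moved where it changed by more than the SD of all differences, 0.28. All 8 member probe sets kept their direction under the 3 other scalings, and the largest move was 0.056. The positive members all moved up, and the negative ones lay at -0.16 or lower, farther from 0 than that move. The kept direction therefore says little about reproducibility. The median of the 8, -0.051, became 0.0053 after removal of the loess trend. Centring adds 0.052 to every difference, whereas loess and quantile normalization move each by its own amount; quantile normalization took *Pigr* to -0.29. The count of members past 1.5-fold was 1 under each scaling and with the lower bound of 0.32. It was 0 at 2-fold, and 0 with probe sets under the median level left out, which removes both of *Tnfrsf17*. Of the 21 lists, 11 kept the sign of their median under the alternatives that gave a value and 10 did not; the medians of those 10 lay near 0 (-0.068 to 0.13). The T cell median ran from -0.28 to -0.16. The median of the *Ms4a* family moved to -0.31 among genes at or above the median level, where 1 gene was left. Low signal limits *Tnfrsf17*, as no detection calls were used here.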
